A study of Mus musculus with 7 samples.

Results

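Sites of intermediate width where called peaks of the glucocorticoid receptor (GR) and PPARα overlapped were examined in mouse burst-forming unit erythroid progenitors (BFU-E). These are early cells already restricted to red cell formation. Sites were chosen by 2 values of the called peaks: the GR peak had to be at least 80 bp and under 200 bp wide, called medium-width below, and to overlap any PPARα peak by 1 bp or more. Of 1157 GR peaks, 408 met both conditions (35.3%, exact Clopper-Pearson 95% interval 32.5 to 38.1%). They overlapped 409 of the 1651 PPARα peaks (24.8%, interval 22.7 to 26.9%), which are called partners here, in 413 pairs. Because width and position selected the sites, the share that overlapped is a property of the choice. Reads, enrichments and summits are described with no test, because each antibody had 1 library and peaks of 1 library are not replicates. Intervals cover counting error only.

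GR is a steroid receptor that enters the nucleus when it binds a glucocorticoid such as dexamethasone and contacts DNA either at palindromic elements as a dimer or through other bound factors. PPARα is a receptor for fatty acids, known for switching on fatty acid oxidation, and contacts DNA at direct repeats together with the retinoid X receptor. GW7647 is a synthetic PPARα agonist. Glucocorticoids are known to prolong the self-renewal of BFU-E, and the title of the series names a synergy between both receptors in these progenitors.

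The cells came from fetal livers of the strain 129/SvImJ at E14.5, were enriched by removing cells of other lineages, and were sorted for c-kit with low CD71. Per the labels they were treated for 4 h with 100 nM dexamethasone together with 10 μM GW7647 in medium that held SCF, IGF-1 and erythropoietin. Chromatin was pulled down with antibodies raised in rabbits against either receptor. Untreated cells, cells given dexamethasone alone and the input DNA are also listed, but those 5 samples were not analysed here. After duplicates were removed, 7516221 GR reads and 1959992 PPARα reads remained, a difference in depth of 3.83 times. Both were called against the same input of 30047397 reads. In the PPARα table, the read file given in the header carries a mark for dexamethasone only, whereas the sample's label gives both compounds. Which treatment the PPARα reads come from cannot be told apart from the files, and "PPARα" below means the library so labelled. Positions are those of the deposited peak tables on mm9. No gene or sequence is given for a site, because no genome or annotation of that build was used here.

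Among medium-width GR peaks, 58.4% (408 of 699, interval 54.6 to 62.1%) had a PPARα partner, beside 64.9% of all GR peaks. The share was 82.7% (272 of 329) for GR peaks under 80 bp and 55.0% (71 of 129) for those of 200 bp or more. Within the chosen range the share did not fall evenly with width. It was 77.4% (113 of 146, interval 69.7 to 83.9%) at 80 to 99 bp, 53.6% (120 of 224, interval 46.8 to 60.2%) at 100 to 119 bp and 51.9% (82 of 158, interval 43.8 to 59.9%) at 120 to 139 bp. It was 68.0% (51 of 75, interval 56.2 to 78.3%) at 140 to 159 bp and 43.8% (42 of 96, interval 33.6 to 54.3%) above that. These intervals cover counting error only, and differences between the bands were not tested. Most of the medium-width peaks without a partner, 180 of 291, were 100 to 139 bp wide, as the widths of all peaks under 300 bp show.

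**Figure D1:**
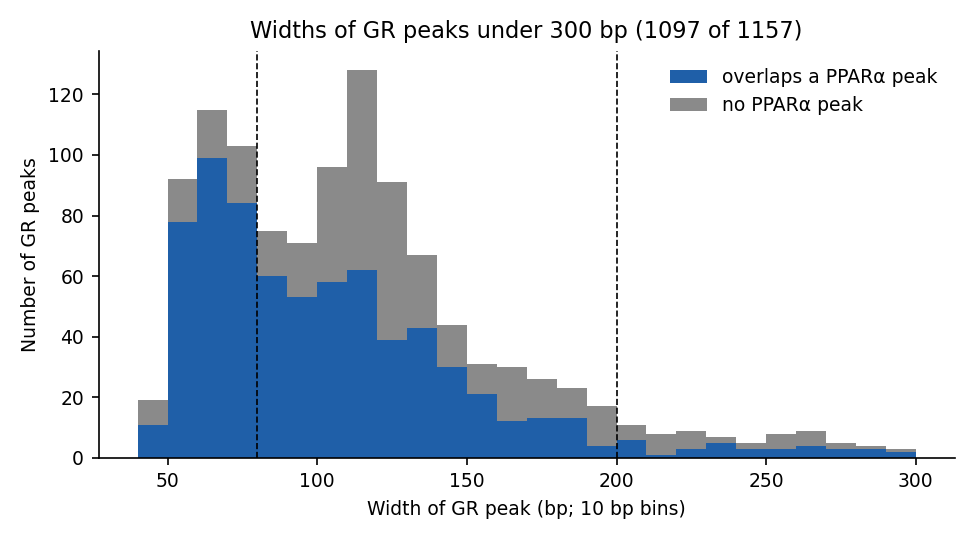
Number of GR peaks (vertical axis) by width in bp (horizontal axis, 10 bp bins) for the 1097 GR peaks under 300 bp, stacked by whether a PPARα peak overlapped (blue) or not (grey). Dashed lines mark 80 and 200 bp, between which 408 of 699 peaks had a partner.

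The medium-width shared sites were more strongly enriched for GR than GR peaks of the same width without a partner. The fold enrichment, which is the authors' value for reads at the summit over background, had a median of 41.9 at the 408 shared sites (quartiles 32.7 and 71.1, range 4.56 to 249). At the 291 medium-width GR peaks with no partner the median was 23.7 (quartiles 19.6 and 29.6, range 4.93 to 47.4). The ranges of fold overlapped up to 47.4, which is above the median of the shared sites. The fold of 173 shared sites (42.4%) exceeded the highest fold of any peak without a partner, and 42 shared sites (10.3%) were at or below the median of those peaks. Over all 1157 GR peaks the median was 35.5.

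Reads gave a smaller separation than fold. Shared sites held a median of 11 GR reads (quartiles 8 and 19, range 6 to 195), and same-width peaks without a partner held 7 (quartiles 6 and 9, range 6 to 53). Only 12 shared sites (2.94%) had more reads than the fullest peak without a partner. The difference in fold was present in each band of width. Median folds with and without a partner were 41.5 and 29.6 at 80 to 99 bp, 35.5 and 23.7 at 100 to 119 bp, and 47.4 and 23.7 at 120 to 139 bp. They were 56.0 and 25.1 at 140 to 159 bp and 53.3 and 29.6 above that. Depth of the PPARα library moves with this comparison, since a site with few reads can be missed in the shallower library, and its part in the difference was not tested.

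**Figure D2:**
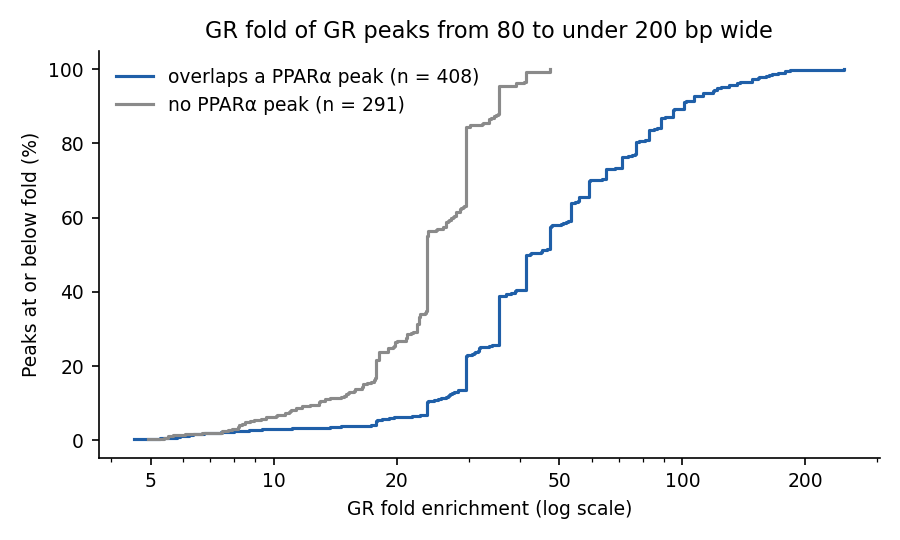
Cumulative percentage of medium-width GR peaks (vertical axis) at or below a given GR fold enrichment (horizontal axis, log scale), for the 408 peaks with a PPARα partner (blue) and the 291 without (grey). The grey curve ends at a fold of 47.4, while 173 shared sites lie beyond it.

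The PPARα partners likewise stood above the rest of their own list. Their median fold was 201 (quartiles 126 and 301, range 8.07 to 1080), against 126 over all 1651 PPARα peaks and 100 over the 886 PPARα peaks that overlapped no GR peak. Partners held a median of 12 reads (quartiles 7 and 19, range 4 to 153), against 6 over the whole list. Only 69 partners (16.9%) rested on 5 reads or fewer, and 65 (15.9%) held 25 or more. Folds of the GR and PPARα lists are not on one scale. A single read over the genome-wide background amounts to a GR fold of 5.92 but a PPARα fold of 25.1.

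The 12 sites with the best mean rank of both folds lay on 8 chromosomes. At these sites GR reads ran from 26 to 54 and PPARα reads from 25 to 59. The strongest was chr9:78195308-78195442, with a GR fold of 248.8 and a PPARα fold of 1079.62. The PPARα peak there was narrower, from 78195312 to 78195388, each library had 44 reads, and base 78195348 was the summit of both. That site ranked first in both lists among the 408.

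On chromosome 17, the GR peak chr17:81741860-81742025 had 49 reads and a fold of 177.71, and the PPARα peak from 81741861 to 81742023 had 48 reads and a fold of 903.87. Both peaks were almost the same stretch, and their summits were 1 bp apart. A second site on that chromosome, chr17:10692112-10692193, was at the narrow end of the range with 82 bp, and gave GR 30 reads and a fold of 177.71 and PPARα 32 reads and a fold of 803.44. At chr4:58662414-58662546 GR had 46 reads and a fold of 183.63, PPARα had 51 reads and a fold of 703.01, and the summits coincided. PPARα thus had slightly more reads than GR at both of the latter sites, from the shallower library.

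The GR peak chr2:155247372-155247542 was 171 bp wide with 38 reads and a fold of 162.76, while its partner spanned 90 bp with 43 reads and a fold of 928.98. At chr10:19249278-19249385 the GR fold was 171.79 with 30 reads and the PPARα fold 803.44 with 32. At chr6:124478791-124478940 GR had 54 reads and a fold of 159.94, PPARα had 59 reads and a fold of 778.33, and the summits were 13 bp apart, the largest distance among the 12. The caller's FDR for that GR peak, 5.88%, was the highest of all 408 sites. At chr1:170517262-170517412 the partner was the wider peak, with 219 bp against 151 bp, and had 38 reads against 50 for GR (folds 602.58 and 165.86). GR thus had the wider peak at 3 of these 4 sites and PPARα at the fourth.

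The other 4 were chr9:21825828-21825913, chr9:5905690-5905787, chr13:74231508-74231633 and chr1:41106645-41106779. Their GR folds lay between 148.09 and 159.94 and their PPARα folds between 577.47 and 652.8, with 26 to 33 GR reads and 25 or 26 PPARα reads. Across all 12 sites the ratio of PPARα to GR reads stayed between 0.758 and 1.13. Summit bases were identical at 6 of them, and at 11 the PPARα peak lay inside the GR peak. The plot of peak extents shows how closely one edge was shared, with starts within 5 bp at 9 of the 12.

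**Figure D3:**
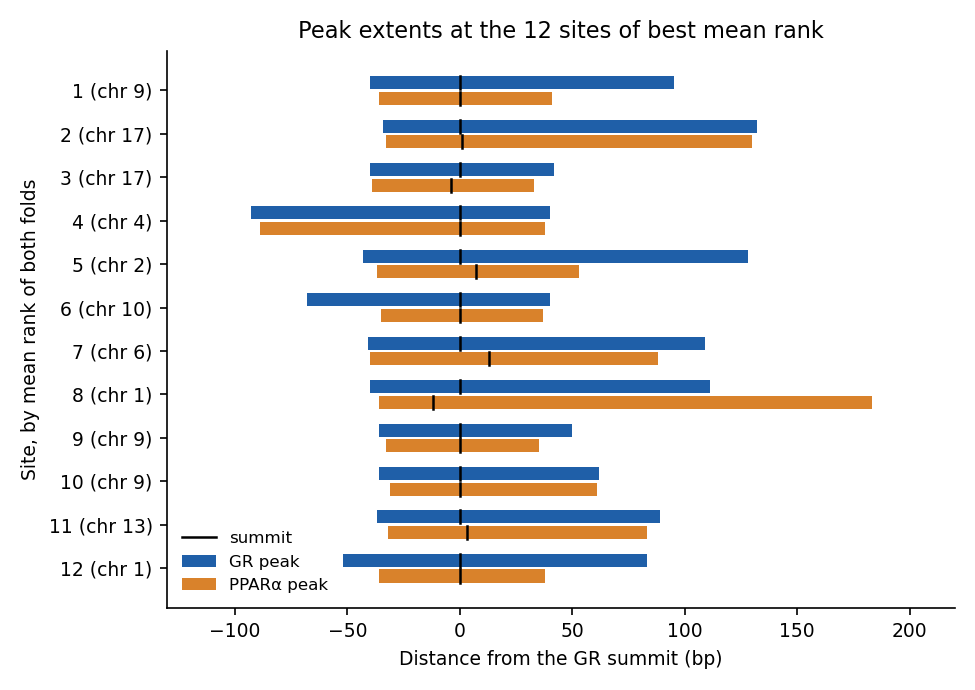
Extent of the GR peak (blue) and the PPARα peak (orange) at the 12 sites of best mean rank, in bp from the GR summit (horizontal axis), with 1 row per site and black ticks for the summits. Summit distances run from 0 to 13 bp, and at 11 sites the PPARα peak lies within the GR peak.

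Most sites were simple pairs. Of the 408 GR peaks, 403 had 1 partner and 5 had 2, and 7 of the 409 partners overlapped 2 GR peaks. This left 392 exclusive pairs in which neither peak had a further match. Partners were mostly the narrower peak, in 313 of 413 pairs (75.8%), with a median width of 90 bp (quartiles 65 and 124) beside 114 bp for the GR peaks (quartiles 98 and 136). The PPARα peak lay wholly inside the GR peak in 236 pairs (57.1%), the GR peak inside the PPARα peak in 32 (7.75%), and in 145 (35.1%) the peaks were staggered. Starts were within 5 bp of each other in 169 pairs (40.9%) and ends in 154 (37.3%). Both edges were within 5 bp in 62 pairs (15%), and no pair had identical start and end.

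By width, 162 partners (39.6%) were under 80 bp, 232 (56.7%) were themselves of medium width, and 15 (3.67%) were 200 bp or more. The width of the partner went with its reads. In pairs with a partner under 80 bp, median reads were 9 for GR and 7.5 for PPARα. With a medium-width partner both medians were 14, and with a wider partner they were 12 and 22.5. Median GR folds over the same pairs were 41.5, 47.4 and 50.4. Across the 392 exclusive pairs the Spearman correlation of PPARα width with PPARα reads was 0.549, and with PPARα fold 0.187. For GR the corresponding values were 0.397 and 0.133. These are descriptions across peaks of 1 library each, and the width and reads of a peak come from the same reads.

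Summits of both receptors fell close together at these sites. The median distance over 413 pairs was 4 bp (quartiles 2 and 11 bp, range 0 to 241 bp). Summits were on the same base in 37 pairs (8.96%), at most 5 bp apart in 230 (55.7%) and at most 20 bp apart in 356 (86.2%). The PPARα summit lay at the higher coordinate in 193 pairs and at the lower in 183. The midpoints of the peaks were farther apart, with a median of 12.5 bp. Shared GR peaks under 80 bp had a median summit distance of 3 bp, but there the whole peak leaves less room for a difference. At shared GR peaks of 200 bp or more it was 11 bp.

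**Figure D4:**
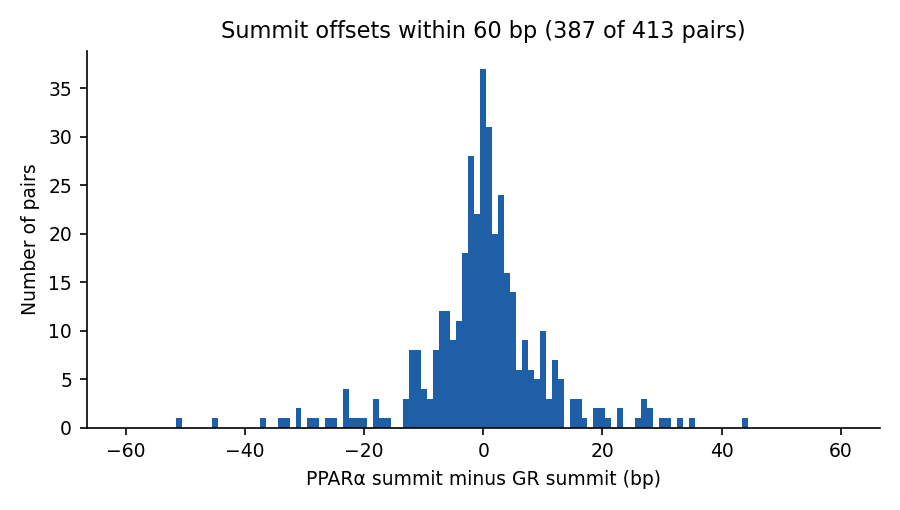
Number of pairs (vertical axis) by position of the PPARα summit minus that of the GR summit in bp (horizontal axis, 1 bp bins), for the 387 of 413 pairs within 60 bp. The counts centre on 0, where 37 pairs lie, and fall off to both sides.

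The summits were not simply the centres of the GR peaks. The GR summit was within 1 bp of the midpoint in 37 pairs (8.96%), whereas the PPARα summit was so in 149 (36.1%). A GR summit lay a median of 39 bp from its nearer edge (quartiles 33 and 42) and 77 bp from its farther edge (quartiles 61 and 94). For PPARα these distances were 33 bp (quartiles 28 and 36) and 57 bp (quartiles 33 and 87). Reads were 40 bp long, and the caller estimated fragments of 42 bp (GR) and of 38 bp (PPARα), so the nearer edge lay about 1 such length from the summit. Both estimates are close to the read length, and the PPARα one is below it, so they need not be the true fragment lengths. In 82 pairs both peaks reached over 2 times as far on one side of the summit as on the other. In 66 of these (80.5%) the longer arm pointed the same way in both libraries. Overlap was required of every pair, so this share depends on the choice of pairs and was not tested. Where neither summit was within 5 bp of its peak's midpoint (196 pairs), the median summit distance was 6 bp.

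Summits were over 40 bp apart in 29 pairs (7.02%). In 11 of these 29 (37.9%) one of the peaks had a further match, and in 15 (51.7%) the PPARα peak was the wider one, against 80 of the 384 other pairs (20.8%). The largest distance, 241 bp, was at chr4:138059034-138059165, where a GR peak of 8 reads touched a PPARα peak starting at 138059165 by a single base. The same GR peak had a second partner with 15 reads and a fold of 276.18, whose summit was 3 bp away. On chromosome 18 a GR peak of 13 reads and a fold of 46.64, starting at 53223096, was 227 bp from the summit of its partner, which had 41 reads over 292 bp. That partner also covered a GR peak from 53223270 to 53223390 with 27 reads and a fold of 136.25, and its summit was 4 bp from that one. Next, at chr15:90047045-90047198, an exclusive pair had summits 181 bp apart, with 23 GR reads in 154 bp and 31 PPARα reads in 261 bp. Among the 7 partners that covered 2 GR peaks, the PPARα summit was nearer to the GR peak of higher fold in 5 and to that of lower fold in 1, and in 1 both GR folds were equal.

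Among the 5 sites with 2 partners, the one of highest GR fold was chr3:96066914-96067046, with 22 GR reads and a fold of 88.86. Its partners had 15 reads, 1 bp from the GR summit, and 4 reads, 80 bp from it. Next came chr13:23653865-23653978 with 9 GR reads and a fold of 47.39. Its partners had 4 reads each, with summits 23 and 88 bp away. Here the GR summit lay between both PPARα summits.

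PPARα and GR reads in the peaks were similar in median over the whole range of GR reads, but less so at the lowest GR folds. The ratio of PPARα to GR reads was 0.703, 0.390 and 0.616 at the 3 sites of lowest GR fold. Over the 392 exclusive pairs, PPARα reads divided by GR reads had a median of 0.938 (quartiles 0.714 and 1.14, range 0.293 to 2.83). The depths of the libraries stand in a ratio of 0.261. PPARα had more reads than GR in 142 pairs (36.2%), as many in 43 (11%) and fewer in 207 (52.8%). The ratio was between 0.5 and 2 in 371 pairs (94.6%), and at or below the depth ratio in 0 of 392. A PPARα peak needed at least 4 reads to appear in the list, so weak GR sites could not show low ratios.

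That floor does not reach the depth ratio in pairs with many GR reads, so the ratio was also taken by GR reads. All pairs still have a called PPARα peak by the choice of sites. Medium-width GR peaks without one held up to 53 reads and enter no ratio, so low ratios can be missing at high GR reads too. The median ratio was 0.857 in the 93 pairs with 6 or 7 GR reads, 0.875 in the 95 with 8 to 10 and 0.917 in the 61 with 11 to 14. It was 1.00 in the 78 pairs with 15 to 24 GR reads, 0.963 in the 51 with 25 to 49 and 0.896 in the 14 with 50 or more. In the 65 pairs with at least 25 GR reads it ranged from 0.293 to 1.30. Shared GR peaks under 80 bp had a median ratio of 1.00 over 268 exclusive pairs, and those of 200 bp or more 0.822 over 56. Quartiles of the latter, 0.400 and 0.971, reached lower than those of the medium-width sites.

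**Figure D5:**
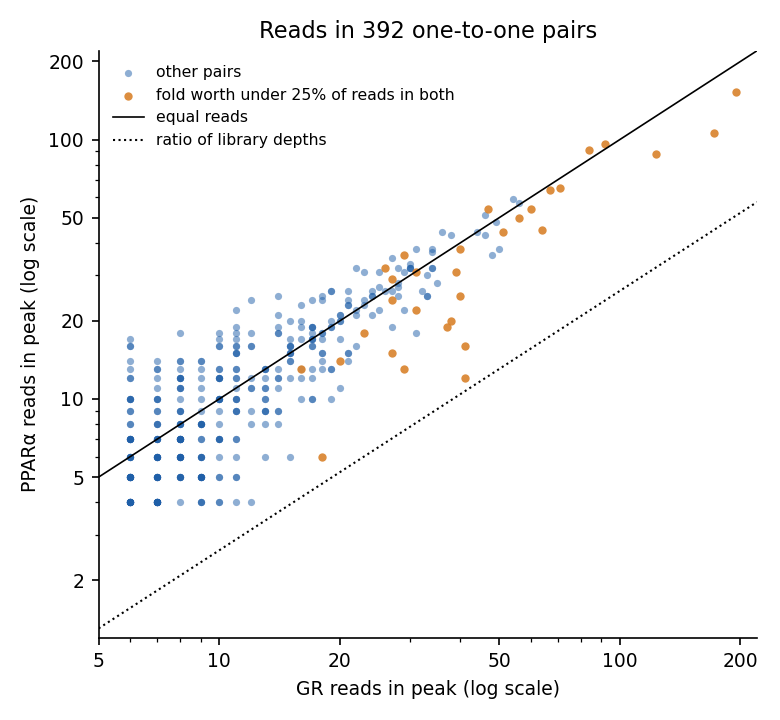
PPARα reads (vertical axis) against GR reads (horizontal axis), both on log scales, in 392 exclusive pairs. The solid line marks equal reads and the dotted line the depth ratio of 0.261. Orange points are pairs whose fold was worth under 25% of the reads in both libraries, and no point reaches the dotted line.

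Strong sites for one receptor were strong for the other. Across the 392 exclusive pairs the Spearman correlation was 0.784 for fold and 0.807 for reads, and Pearson's r of the log2 values was 0.864 and 0.858. Both libraries were called against the same input, which can move both folds together, and pairs are not independent replicates. Of the 98 pairs in the top quartile by GR fold, 79 (80.6%) were in the top quartile by PPARα fold and 0 in the lowest. At the other end, 58 of the 98 pairs in the lowest quartile by GR fold (59.2%) were in the lowest by PPARα fold, and 2 were in the top quartile. Widths were less alike, with a Spearman correlation of 0.416.

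The pairs with the most unequal reads were named among the exclusive pairs with at least 15 GR reads. In these, PPARα exceeded GR most at chr10:61614870-61614972, with 32 against 22 reads (ratio 1.45), at chr15:93471163-93471244 with 23 against 16 (ratio 1.44), and at a site on chromosome 18 starting at 53222734 with 24 against 17 (ratio 1.41). GR folds at these 3 sites were 106.63, 94.78 and 71.08. Among the same pairs, GR exceeded PPARα most at chr16:18533284-18533442, with 41 against 12 reads (ratio 0.293), at chr1:56839103-56839231 with 18 against 6 (ratio 0.333), and at chr8:24205959-24206149 with 41 against 16 (ratio 0.390). GR folds there were only 6.76, 9.39 and 5.26. At these 3 sites the fold was low for the number of reads.

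A fold can be turned into the number of reads it would be worth at the genome-wide background. In 300 pairs (72.6%) that number was whole in both libraries, within 0.02 reads, which a background not raised by the input gives and a raised one can give by coincidence. At sites with a whole number, the summit held a median of 83.3% of the GR reads of a peak (318 pairs) and 85.7% of the PPARα reads (315 pairs). In 32 pairs (7.75%) the fold was worth under 25% of the reads in both libraries, a limit set after the data were seen. These pairs held a median of 39.5 GR reads (range 16 to 195) and 31 PPARα reads (range 6 to 153), with median folds of 17.8 and 71.6. Their median read ratio was 0.790 and their median summit distance 2 bp.

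The 3 sites with the most GR reads were all among these 32 pairs. The GR peak chr13:77578162-77578320 held 195 reads with a fold of 5.89, and its partner 153 reads with a fold of 21.8. At chr4:70039148-70039296 the reads were 172 and 106 and the folds 5.66 and 12.83. At chrX:139917546-139917657 they were 123 and 88, with folds of 6.36 and 28.94. In each of these peaks the fold was worth 0.482 to 1.31% of the reads. The lowest GR fold of the 408 sites, 4.56 with 64 reads, was at chr9:24346457-24346611, where PPARα had 45 reads, a fold of 14.87 and the same summit base. The next lowest were the site on chromosome 8 starting at 24205959 and that on chromosome 4 starting at 70039148. A raised input and a spread of reads over the peak both lower this percentage, and the part of each was not tested. Without all peaks below this limit the median read ratio was 0.971 over the pairs of the remaining 371 sites, and the median summit distance 5 bp.

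Sites of this width sat between narrower and wider shared GR peaks in reads. Shared GR peaks under 80 bp held a median of 8 reads (range 6 to 34) and those of 200 bp or more 77 (range 13 to 2917), beside 11 here. Median GR folds were 41.5 and 19.6 in those groups, beside 41.9. The fold of partners had a median of 178 for narrow and 62.8 for wide GR peaks, beside 201. Wide shared peaks thus had the most reads and the lowest median fold. Since the width of a peak and its count come from the same reads, these orders describe the lists and were not tested. At the lower limit, 8 sites were 80 bp wide, with 6 to 27 GR reads (median 9) and folds from 13.71 to 65.16 (median 44.4). Just outside, 10 shared GR peaks were 79 bp wide, with 6 to 34 reads (median 11) and folds from 4.65 to 88.86 (median 40.3). Those with the most reads were chr11:95942456-95942535 (27 reads, fold 13.71) and chr5:119376897-119376976 (11 reads, fold 65.16) inside, and peaks on chromosome 19 from 23431918 (34 reads, fold 4.65) and on X from 21257686 (34 reads, fold 19.67) outside. The widest sites were chr2:158743557-158743755 (27 reads, fold 82.93) and chr14:57312830-57313024 (84 reads, fold 73.08). Just outside lay peaks of 201 bp on chromosome 11 from 3004562 (45 reads, fold 7.44) and of 203 bp on chromosome 4 from 93149513 (45 reads, fold 118.47).

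The sites were spread over all autosomes and X, and mostly stood alone. With a gap of 10 kb, 355 of the 408 (87.0%) had no other such site nearby, 16 groups held 2 and 5 groups held 3 or more. With a gap of 100 kb, 336 (82.4%) stood alone, 20 groups held 2 and 6 groups held 3 or more. Chromosome 13 carried the most, 42 (10.3%), beside 9.16% of all GR peaks. At the gap of 100 kb it held groups of 6, 4 and 5 sites between 21809832 and 23853914, and a group of 3 elsewhere. Chromosome Y had 11 GR peaks, 2 of them of medium width, and 0 of the 408 sites. By chromosome, the share of GR peaks of this width with a partner ranged from 41.2% on chromosome 19 (7 of 17) to 87.5% on chromosome 16 (14 of 16), leaving out Y.

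The tightest groups had several peaks within a few kilobases. On chromosome 18 between 53221908 and 53223658, 8 sites in 1751 bp held 119 GR and 133 PPARα reads, with GR folds from 23.69 to 136.25. A group on chromosome 13 had 3 sites in 455 bp, from 53653471 to 53653925, with 16, 18 and 15 GR reads and folds from 59.24 to 77.01. Its partners had 50 reads in all and folds from 235.2 to 301.29. On chromosome 3, 2 groups of 3 sites lay between 96042463 and 96051210 and between 96066914 and 96073022, with 41 and 54 GR reads and 42 and 58 PPARα reads. With a gap of 100 kb, both joined into a group of 6 sites. On chromosome 13, 4 sites from 23844569 to 23853914 held 41 GR and 40 PPARα reads. Summed over the sites of each group, reads of both receptors were nearly equal, but single sites differed more. In the chromosome 18 group, GR and PPARα had 17 and 12 reads at the site from 53222290, and 9 and 13 at that from 53222474. The sums count the chosen sites only, and the chromosome 18 stretch held 10 GR peaks in all.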

How the data were processed

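Peaks had been called by the authors with MACS 1.4.2, per the file headers, for each ChIP library against 1 input, at a p cutoff of 1e-05 and with 1 read kept per position. Reads were processed with cutadapt and Bowtie on mm9, per the submitters' processing notes, with no version in the notes. The deposited tables give a count of reads per peak, a score (10 times the negative log10 of the p-value), a fold ratio over background and an FDR in percent. The deposited lists of fold 10 or more matched the full tables (1058 GR and 1623 PPARα peaks). The GR score column has a spreadsheet error for a name and was taken by position.

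Overlap, summit distance and read ratio were computed with Python 3.11.15, numpy 2.4.6, pandas 2.3.3 and scipy 1.17.1, and figures with matplotlib 3.10.9. Overlap counting was tested on simulated data. Sites were named by rule: the 12 of best mean rank of both folds, 3 each with the most GR reads, the lowest GR fold, the highest and lowest read ratio (exclusive pairs with at least 15 GR reads) and the largest summit distance, the 2 of highest fold with several partners, and 2 on each side of each width limit, with ties broken by more GR reads. The sites, comparisons and rules were chosen with earlier results of these data known. Motif, location and gene analyses were planned but not run, since no mm9 genome or annotation was used here. With 1 library per antibody no test was made.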

Additional observations from a re-analysis of the deposited data

How the results depend on the processing

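Each of 7 results was recomputed under 10 planned settings and 3 chosen after seeing the data. The median read ratio stayed within its 95% binomial interval in all 13 (0.933 to 1). Requiring PPARα peaks of at least 80 bp left 250 sites, 35.8% of GR peaks of this width, with a median summit distance of 6 bp and a median partner width of 116 bp. GR peaks of 10 reads or more left 239 sites and 79.4%, with median folds of 65.2 and 251 and a partner width of 105 bp. PPARα peaks of 6 reads or more gave a share of 48.9%, a median PPARα fold of 226 and a partner width of 100 bp. Summits at most 20 bp apart in place of overlap gave 50.9% and, by construction, a distance of 3 bp. A fold of 20 or more in both lists gave 64.1%, and width limits moved out by 10 bp a partner width of 83 bp. All of these settings but the last remove peaks or pairs by construction, and the last adds them. All other values stayed within 1.5 times (site count) or the main value's 95% interval. Motif windows and gene distances were not run. No paired analysis was possible because each antibody had 1 library. Partners rest on a median of 12 reads, so single ratios and summits are imprecise.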
